A study of Homo sapiens with 6 samples.

Results

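Superoxide dismutases, catalase, glutathione peroxidases and peroxiredoxins were followed through the making of polyploid giant cancer cells (PGCCs), the very large cells with multiplied genomes that survive a pulse of paclitaxel, and of the smaller daughter cells that bud from them. The 10 genes were chosen by symbol from the 59008 gene symbols of a table of transcripts per 1000000 (TPM): SOD1, SOD2, SOD3, CAT, GPX1, GPX2, GPX3, GPX4, PRDX1 and PRDX3. The table holds 6 RNA sequencing libraries, 1 for each of the 3 cell states (parental, PGCC and daughter) in Hey and in SKOV3, both established human ovarian cancer cell lines. Parental cells were untreated. PGCCs received 500 nM paclitaxel, which freezes microtubules and so stops mitosis, for 16 h and then recovered for 3 days in regular medium. Daughter cells received the same pulse, recovered for 30 days and were labelled as 1 clone in each line. The title of the SKOV3 PGCC library gives day 7, whereas its treatment label and the methods of the study give 3 days. Hey was grown in MEM Eagle and SKOV3 in RPMI-1640, both with fetal bovine serum, so line and medium cannot be told apart. With 1 library per condition no value carries an error, neighbouring levels cannot be set against a spread, and the second line is the only repeat of a comparison.

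Cells make superoxide as a by-product of respiration and in dedicated oxidases. Superoxide dismutases turn it into hydrogen peroxide, which catalase, glutathione peroxidases and peroxiredoxins then break down, each in its own compartments and with its own supply of electrons. SOD2, GPX1 and PRDX3 act wholly or partly in mitochondria, and SOD2 is a classical target of the inflammatory transcription factor NF-κB. Most glutathione peroxidases carry the rare amino acid selenocysteine, which is inserted at a TGA codon that elsewhere ends translation, so their synthesis also depends on selenium.

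SOD2 and GPX1 varied most between the states of a line. SOD2 TPM was 13.2 times the parental level in Hey PGCCs and had returned to 1.42 times in the daughter cells, whereas in SKOV3 it was 2.19 times the parental level in PGCCs and 3.54 times in daughter cells. GPX1 TPM was highest in PGCCs and lowest in daughter cells of both lines, and 2-fold or more apart between states in SKOV3 alone as deposited. The most abundant gene, PRDX1, and the cytosolic dismutase SOD1 stayed within 2-fold of the parental level in every state. Between the lines, GPX1 and GPX3 were higher in Hey and SOD1 and GPX4 higher in SKOV3 in all 3 states.

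Sequences are shown for the selenocysteine codon, the feature that sets 4 of the 10 genes apart from the rest, and for the region upstream of SOD2 and GPX1, the genes whose levels moved most. The codon windows are from the GENCODE release 44 transcripts (GRCh38), 5′ to 3′ on the coding strand, with the TGA in capitals and 12 bases on each side.
GPX1: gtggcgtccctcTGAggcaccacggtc
GPX2: gtggcttcgctcTGAggcacaaccacc
GPX3: gtggccagctacTGAggcctgacgggc
GPX4: gtggcctcccagTGAggcaagaccgaa

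The codon lies in exon 1 of GPX1 (chr3:49358132-49358134, minus strand), in exon 1 of GPX2 (chr14:64942607-64942609, minus strand), in exon 2 of GPX3 (chr5:151025469-151025471, plus strand) and in exon 3 of GPX4 (chr19:1105403-1105405, plus strand). All 4 windows share the bases GTGGC at their start and the GGC that follows the TGA. GPX1 and GPX2 were the most alike, with 21 of 27 identical bases, and GPX2 and GPX3 the least, with 15. The other members, SOD1, SOD2, SOD3, CAT, PRDX1 and PRDX3, are no selenoproteins.

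The upstream windows hold the 250 bases before the RefSeq gene start (GRCh38.p14), 5′ to 3′ on the strand of the gene, with the GC box core GGGCGG or its reverse complement CCGCCC in capitals.
SOD2: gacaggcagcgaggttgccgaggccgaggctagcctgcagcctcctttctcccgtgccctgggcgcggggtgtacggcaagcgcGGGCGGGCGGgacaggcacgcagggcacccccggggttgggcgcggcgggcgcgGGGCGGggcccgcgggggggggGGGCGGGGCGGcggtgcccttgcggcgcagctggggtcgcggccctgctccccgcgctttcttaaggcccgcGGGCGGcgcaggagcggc
GPX1: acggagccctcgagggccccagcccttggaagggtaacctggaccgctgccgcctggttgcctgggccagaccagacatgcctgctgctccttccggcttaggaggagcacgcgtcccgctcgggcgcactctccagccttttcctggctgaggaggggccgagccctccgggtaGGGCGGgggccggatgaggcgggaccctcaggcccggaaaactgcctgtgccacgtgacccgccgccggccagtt

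The SOD2 window (chr6:159693242-159693491, minus strand) was 80.8% G and C and held 6 matches to GGGCGG, some of which overlap. The GPX1 window (chr3:49358354-49358603, minus strand) was 70.8% G and C and held 1. RefSeq entries matched 8 of the 10 members, not SOD1 and PRDX1. GGGCGG is common, being present on either strand in 42.6% of all 35116 windows of this length. CCAAT, also searched on both strands, was in 32.0% of them and in the nearest windows of CAT (5 matches), GPX3 (2), GPX4 (2), GPX2 (1) and SOD3 (1). TGACNNNGC, the core of the antioxidant response element, was in 10.9% of all windows and, among the members, in that of GPX2 with 1 match. The NF-κB motif was searched as GGGRNNYYCC, where R is A or G, Y is C or T and N is any base. It was in 9.96% of all windows and in none of the 13 windows of the members, which include 4 of SOD2. The SOD2 windows beyond the printed window lie 33709, 34143 and 69040 bases from the canonical start. Bases outside these windows, such as introns, were not searched. A match describes letters only.

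**Figure D1:**
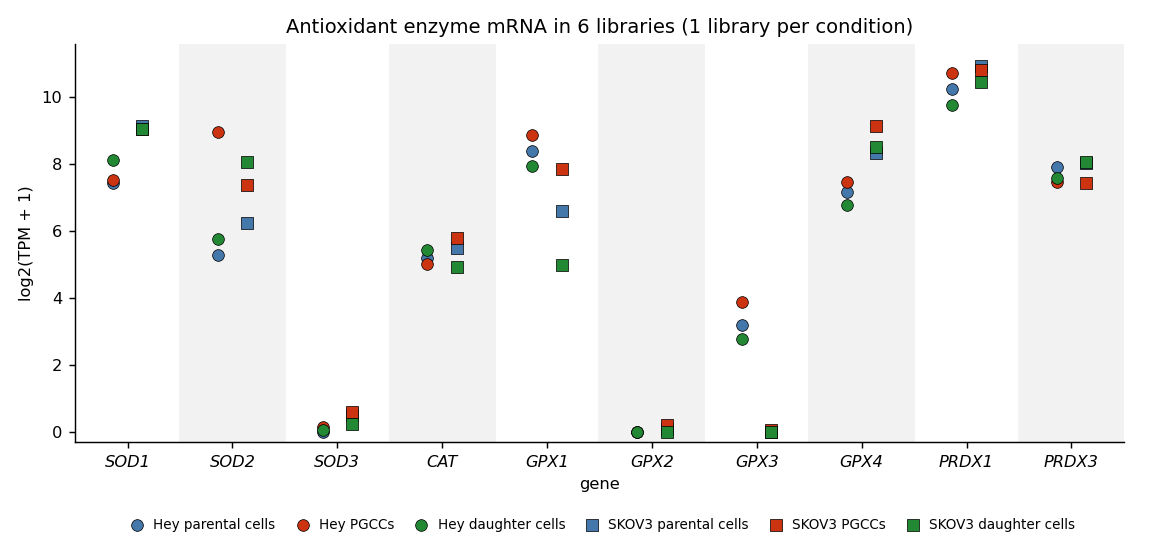
Level of each gene in each library, as log2(TPM + 1), for Hey (circles) and SKOV3 (squares) parental cells, PGCCs and daughter cells. Each point is 1 library. SOD2 and GPX1 spread widely between the states, GPX3 was at or near 0 in SKOV3, and SOD3 and GPX2 were near 0 throughout.

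The libraries were checked before the comparisons were read. The columns of the table summed to between 911825 and 920497 TPM, and mitochondrially encoded RNA took from 2.64% of the total in Hey parental cells to 14.8% in SKOV3 daughter cells. Of the 11 epithelial ovarian cancer markers, all reached a TPM of 1 in some library, and KRT7, KRT8, KRT18 and PAX8 were present in every library. EPCAM, an epithelial adhesion molecule, reached no more than 1.43 TPM in Hey, and CDH1, which encodes E-cadherin, no more than 0.0283, so that Hey was at or near 0 for these defining epithelial transcripts. The summed level was between 0.263 and 28.2 TPM for 7 fibroblast markers and between 2.04 and 70.5 TPM for 6 leukocyte markers, the latter mostly CD68 outside SKOV3 daughter cells, while PTPRC stayed at or below 0.425. The 4 endothelial markers summed to between 0.343 and 49.1 TPM, nearly all from CDH5 in Hey. The 3 red blood cell markers summed to at most 1.42. The part of these markers in the results below was not tested.

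The SKOV3 PGCC library stood apart in base composition. Across the 13468 genes with a known GC content (89.9% of the genes tested), the difference between PGCCs and parental cells increased with transcript GC in SKOV3, with a Spearman correlation of 0.72 across genes, against -0.044 in Hey. Its median in SKOV3 ran from -0.53 below 40% GC to 0.93 at 60% or more. Daughter cells minus PGCCs in SKOV3 had a correlation of -0.46, and daughter minus parental cells, which leaves this library out, 0.15. Genes are not independent replicates, and all points of a comparison share its libraries. Values with a smooth trend in GC content and transcript length subtracted are therefore given beside the members and pathway genes counted against this library, and where none is given the value is uncorrected.

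In the comparisons below a difference is one of log2(TPM + 1), a scale that understates the change of low genes, and a gene was counted as higher or lower at a size of at least 1, a 2-fold change. Of the 10 members, 8 had a mean TPM of at least 1 over the 6 libraries, as did 14988 genes in all. SOD3 and GPX2 did not. Gene positions are those of GENCODE release 44 on GRCh38. The 3 comparisons within a line share their libraries pairwise, so that a high PGCC value enters both comparisons made with it. In bulk RNA, fewer cells with a transcript and less of it per cell cannot be told apart.

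Between PGCCs and parental cells, 1 of 8 members was higher in Hey, SOD2, and none lower. Of all genes tested, 7.67% were higher and 5.22% lower. In SKOV3, 2 of 8 members were higher, SOD2 and GPX1, and none lower, against 9.94% of all genes higher and 4.96% lower. With the GC and length trend subtracted, SOD2 was the only member counted in SKOV3. Of 13468 genes, 4.87% were then counted in either direction, and 45.9% of those were higher. The median difference of the 8 members was 0.40 in Hey, where that of all genes was 0, and 0.18 in SKOV3, where that of all genes was 0.017. Trend subtraction gave medians of 0.083 in SKOV3 and 0.31 in Hey. GPX3, which passed the filter through Hey alone, is 1 of the 8 in SKOV3 too. It was at or near 0 TPM there and differed by 0.05 before subtraction. After it GPX3 was at -0.37, which comes from the fitted trend of 0.42 and enters the SKOV3 median.

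Between daughter and parental cells no member passed 2-fold in Hey, where 6.31% of all genes were higher and 3.73% lower. In SKOV3, SOD2 was higher and GPX1 lower, against 15.1% of all genes higher and 6.34% lower. Between daughter cells and PGCCs, SOD2 and GPX3 were lower in Hey and none was higher, with 8.13% of all genes lower and 9.95% higher. In SKOV3, GPX1 alone was lower and none was higher, with 9.25% of all genes lower and 14.6% higher. The members' median was -0.80 in Hey daughter cells against PGCCs, where 5 of 8 members lay below 0, and -0.21 in SKOV3, also with 5 of 8 below 0. The medians of all genes there were 0.029 and 0.12. After trend subtraction the SKOV3 median was -0.023 with 4 of 8 members below 0, and the Hey median -0.88 with 5 of 8. GPX3, at or near 0 TPM in SKOV3, is 1 of the 5 members below 0 there before subtraction, at -0.05. After it GPX3 was at 0.21, which comes from the fitted trend of -0.26 and enters the SKOV3 median and count.

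A fit over both lines with limma, with state and line as terms, found 0 members at an adjusted p under 0.05 in any of the 3 comparisons between states. It found 3, 2 and 0 of all genes for PGCCs against parental cells, daughter against parental cells and daughter cells against PGCCs. At an unadjusted p under 0.05 there was 1 member for PGCCs against parental cells, 0 for daughter against parental cells and 1 for daughter cells against PGCCs, where 2.73%, 3.39% and 5.06% of all genes were. The spread in this fit is the disagreement between 2 lines, with 2 residual degrees of freedom. limma draws it toward the spread of all genes at a like level, which gives 7.33 degrees of freedom in total. A p-value therefore does not measure the gene's own disagreement alone.

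**Figure D2:**
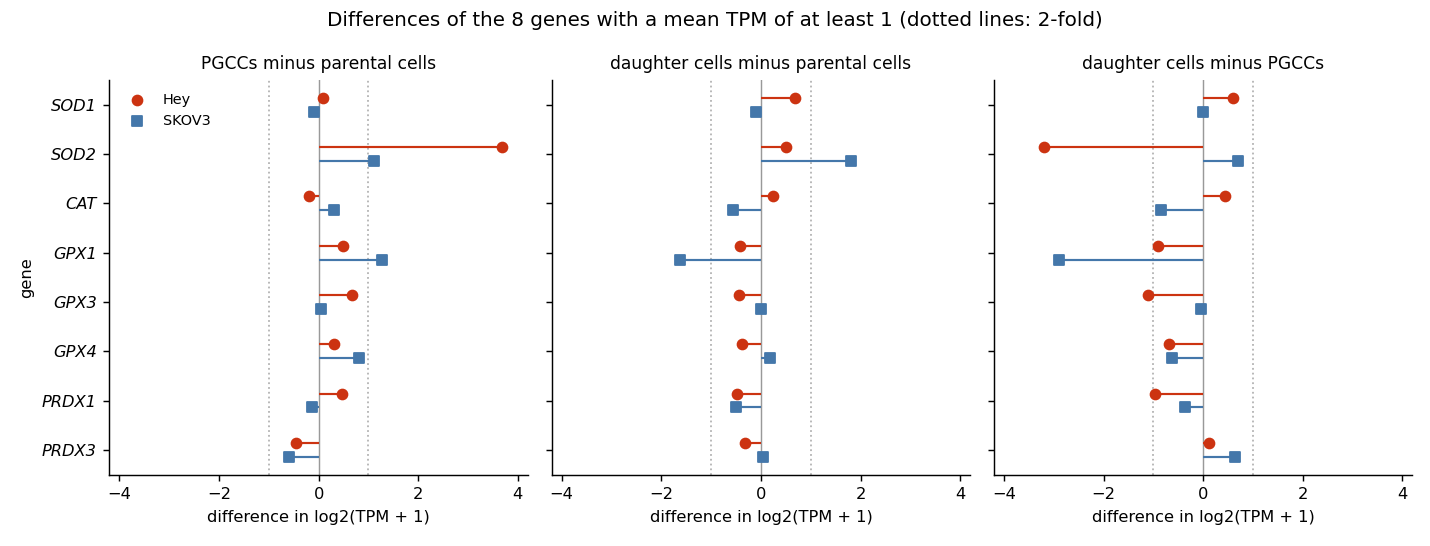
Difference in log2(TPM + 1) for the 8 genes whose mean TPM was 1 or more, in Hey (circles) and SKOV3 (squares), 1 library against 1, with dotted lines at a 2-fold change. SOD2 lies at 3.69 in Hey and 1.12 in SKOV3 for PGCCs minus parental cells, and on opposite sides of 0 for daughter cells minus PGCCs.

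SOD1, the copper and zinc dismutase of the cytosol (chr21:31659693-31668931, plus strand, 5 exons), was at 174, 186 and 281 TPM in Hey parental cells, PGCCs and daughter cells. In SKOV3 the levels were 566, 527 and 528 TPM. Every SKOV3 library was thus above every Hey library, and the highest value within Hey was that of the daughter cells. The largest difference between states was 0.69, in Hey daughter against parental cells, and in SKOV3 the differences from parental cells were -0.10 for PGCCs and -0.10 for daughter cells. With the trend subtracted the SKOV3 value for PGCCs changed sign, to 0.14.

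SOD2, the manganese dismutase of the mitochondrial matrix (chr6:159669069-159693241, minus strand, 5 exons), was at 38.0, 500.3 and 53.9 TPM in Hey parental cells, PGCCs and daughter cells. In SKOV3 it was at 75.3, 165 and 266 TPM. The top level was in the PGCCs of Hey but in the daughter cells of SKOV3, and the lowest was in the parental cells of both. PGCCs minus parental cells gave 3.69 for Hey and 1.12 for SKOV3. It ranked at percentile 99.6 and 92.5 of all genes tested in the respective line.

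The call for SOD2 held under every alternative scaling, filter and pseudocount tried, with differences of 3.61 to 3.84 in Hey and 1.05 to 1.26 in SKOV3. Trend subtraction gave 3.68 and 1.26. In limma the mean difference was 2.40 (SE 0.81), and the p before adjustment was 0.0194 and the adjusted p 1. Leaving out 1 library moved this mean difference to 0.79 without Hey PGCCs and to 4.01 without SKOV3 PGCCs, with adjusted p between 0.881 and 1. Daughter cells differed from PGCCs by -3.19 in Hey and by 0.69 in SKOV3, the latter falling to 0.24 with the trend subtracted. SKOV3 daughter cells stood 1.81 above parental cells, and 1.54 with the trend subtracted. The share of mitochondrially encoded RNA was 2.64%, 12.3% and 7.60% in Hey parental cells, PGCCs and daughter cells and 9.17%, 7.37% and 14.8% in those of SKOV3. With the mitochondrial genes left out, SOD2 kept its call, as the ranges above include that setting.

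SOD3, the secreted dismutase (chr4:24795573-24800842, plus strand, 2 exons), was listed at 0 in Hey parental cells, at 0.104 TPM in PGCCs and at 0.0367 in daughter cells. The SKOV3 levels were 0.420, 0.522 and 0.168 TPM. No library reached 1 TPM, and the table gives no read counts behind such values.

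Catalase, the peroxisomal enzyme encoded by CAT (chr11:34438934-34472060, plus strand, 13 exons), was at 35.7, 31.3 and 42.4 TPM in Hey parental cells, PGCCs and daughter cells. The corresponding SKOV3 libraries had 44.1, 54.5 and 29.8 TPM. The order of the states was opposite in the lines, with PGCCs lowest in Hey and highest in SKOV3. PGCCs differed from parental cells by -0.19 in Hey and 0.30 in SKOV3, and daughter cells from PGCCs by 0.43 and -0.85. The SKOV3 value for PGCCs against parental cells was 0.51 with the trend subtracted. The value for SKOV3 daughter cells against PGCCs passed 2-fold with quantile normalization and with the trend subtracted, where it was -1.09. CAT was the least abundant of the 7 genes other than SOD3, GPX2 and GPX3 in every library.

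GPX1, the widespread glutathione peroxidase of cytosol and mitochondria (chr3:49357176-49358353, minus strand, 2 exons), was at 333, 466 and 247 TPM in Hey parental cells, PGCCs and daughter cells. The SKOV3 levels were 96.5, 234 and 30.6 TPM in the same order. Both lines had the order PGCCs, parental cells, daughter cells, and the steps were wider in SKOV3. PGCCs minus parental cells gave 0.48 in Hey and 1.27 in SKOV3, and daughter minus parental cells -0.43 and -1.63.

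With a GC content of 62.4%, the GPX1 transcript lies where the SKOV3 trend was strongest, and subtracting the trend took the SKOV3 difference between PGCCs and parental cells from 1.27 to 0.40, below 2-fold. GPX1 in SKOV3 daughter cells was counted as lower with and without the subtraction, though the sizes changed. The difference was -1.81 against parental cells and -2.21 against PGCCs with the trend subtracted, and -1.63 and -2.90 without. In Hey the difference between daughter cells and PGCCs was -0.91, and -1.03 with the trend subtracted. For daughter cells against PGCCs limma gave -1.90 (SE 0.50), and the p before adjustment was 0.00622 and the adjusted p 0.908. The mean difference was -1.11 without SKOV3 daughter cells and -2.70 without Hey daughter cells, and the adjusted p lay between 0.130 and 1 over all libraries left out.

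GPX2, an epithelial glutathione peroxidase best known in the gut (chr14:64939158-64942745, minus strand, 2 exons), was listed at 0 in the 3 Hey libraries and in SKOV3 daughter cells. It was at 0.0653 TPM in SKOV3 parental cells and 0.155 in SKOV3 PGCCs.

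GPX3, the secreted plasma glutathione peroxidase (chr5:151020591-151028988, plus strand, 5 exons), was at 8.27, 13.8 and 5.83 TPM in Hey parental cells, PGCCs and daughter cells. In SKOV3 it was listed at 0 in parental and daughter cells and at 0.0354 TPM in PGCCs. It was thus present in Hey and at or near 0 in SKOV3, so its passing of the mean TPM filter came from Hey alone. Within Hey, PGCCs minus parental cells gave 0.67 and daughter cells minus PGCCs -1.11.

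GPX4, the glutathione peroxidase that reduces lipid hydroperoxides in membranes and so restrains ferroptosis (chr19:1103994-1106779, plus strand, 7 exons), was at 143, 178 and 109.7 TPM in Hey parental cells, PGCCs and daughter cells. In SKOV3 it was at 324, 570.4 and 369.5 TPM. PGCCs had the highest level in both lines, and each SKOV3 library was above each Hey library. The difference from parental cells was 0.31 for Hey PGCCs and 0.81 in SKOV3 PGCCs. The GPX4 transcript has 62.3% GC, and with the trend subtracted the SKOV3 value was -0.06 while that in Hey was 0.29.

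**Figure D3:**
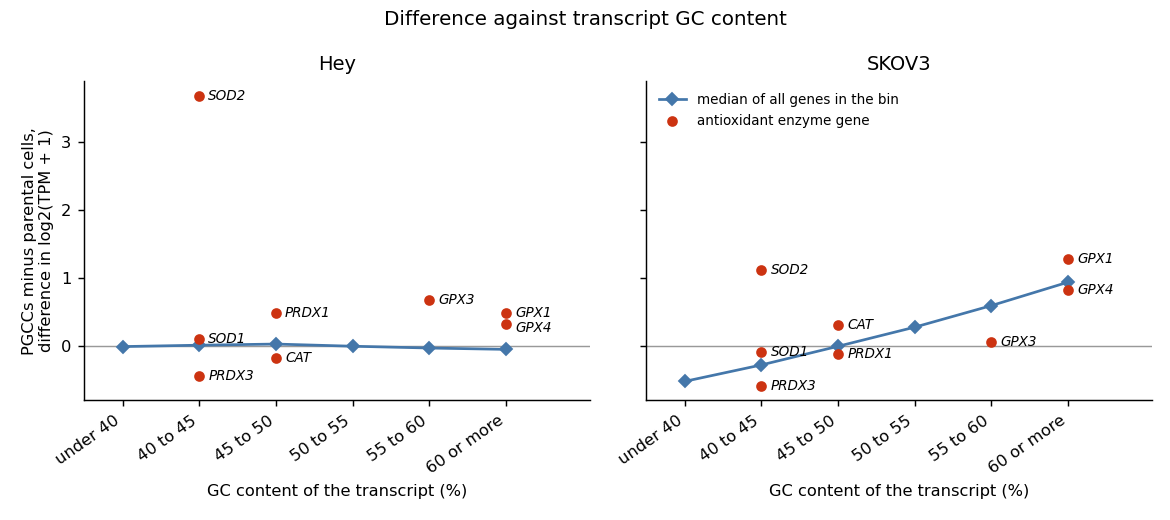
Difference in log2(TPM + 1) between PGCCs and parental cells by GC content of the transcript, with the median of all genes in each bin (blue line) and the 8 antioxidant enzyme genes (red points) in the bin of their canonical transcript, for Hey and SKOV3. The SKOV3 median climbs from -0.53 to 0.93, GPX1 and GPX4 sit close to it, and SOD2 lies well above it in both lines.

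PRDX1, the abundant cytosolic peroxiredoxin (chr1:45511051-45521884, minus strand, 6 exons), was at 1227, 1709.9 and 876 TPM in Hey parental cells, PGCCs and daughter cells. SKOV3 had 1978, 1814 and 1408 TPM. It was the most abundant member in all 6 libraries, with 48.5% to 59.1% of their summed TPM, and the lowest level was in the daughter cells of both lines. Daughter minus parental cells gave -0.49 in Hey and -0.49 in SKOV3, and PGCCs minus parental cells 0.48 and -0.12, the SKOV3 value being 0.02 with the trend subtracted. Daughter cells minus PGCCs gave -0.96 in Hey, just inside 2-fold, and the value was -1.02 with median ratio scaling and -1.04 without the mitochondrial genes. Over all settings it ran from -1.04 to -0.83, and it was -0.95 with the trend subtracted.

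PRDX3, the peroxiredoxin of the mitochondrial matrix (chr10:119167720-119178812, minus strand, 7 exons), was at 239, 175 and 190.2 TPM in Hey parental cells, PGCCs and daughter cells. In SKOV3 it was at 262, 173 and 271 TPM. PGCCs had the lowest level of PRDX3 in both lines, whereas SOD2, of the same compartment, was above its parental level in both. PGCCs minus parental cells gave -0.45 in Hey and -0.59 in SKOV3, or -0.08 in SKOV3 with the trend subtracted, and neither reached 2-fold.

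Summed over the 10 genes, the members held 2198, 3260.3 and 1806 TPM in Hey parental cells, PGCCs and daughter cells, and 3346, 3538 and 2902 in SKOV3. The sum was highest in PGCCs and lowest in daughter cells of both lines, the SKOV3 PGCC value being uncorrected for the GC trend. SOD2 took 1.73%, 15.3% and 2.98% of this sum in the states of Hey, and 2.25%, 4.65% and 9.17% in those of SKOV3. In Hey PGCCs SOD2 was thus the second most abundant member, above GPX1, SOD1 and GPX4.

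**Figure D4:**
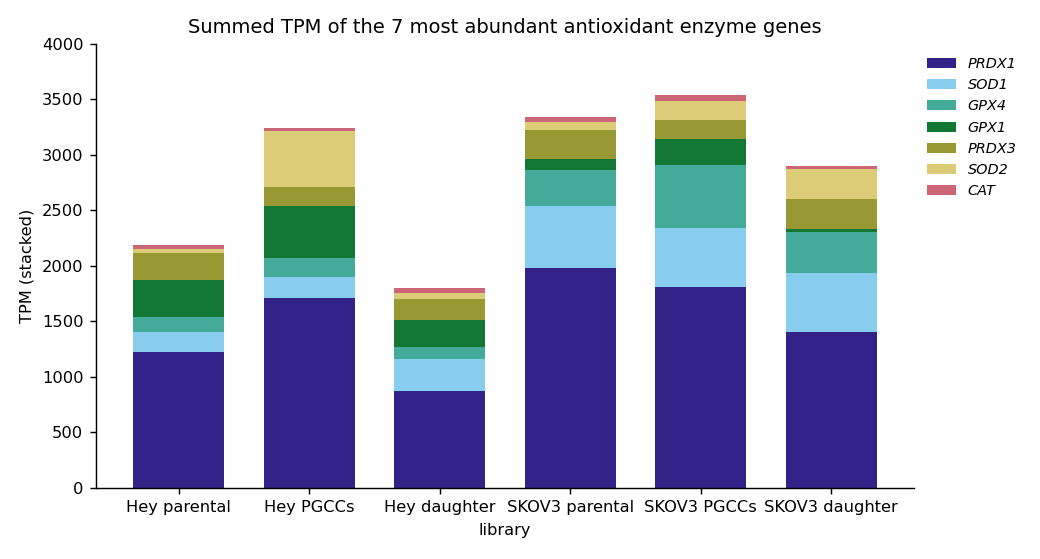
Stacked TPM of the 7 most abundant antioxidant enzyme genes in each of the 6 libraries. PRDX1 makes up 48.5% to 59.1% of the members' sum in every library, SOD2 widens from 1.73% to 15.3% between Hey parental cells and PGCCs, and GPX1 is widest in Hey.

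The lines themselves differed in the same libraries. Between Hey and SKOV3, 4 of 8 members were 2-fold or more apart among parental cells, where 35.7% of all genes were, 4 among PGCCs (43.0% of all genes) and 4 among daughter cells (41.8%). GPX3 is 1 of the 4 each time, and since it passed the filter on low values through Hey alone it had to differ, so its line difference, 3.27 in limma, is a description and supports nothing. In limma, with the states as repeats, 3 of the other 7 members passed an adjusted p of 0.05, as did 20.6% of all genes. The states of a line are related cells and no independent replicates of it. These p-values therefore reflect how steady a difference was across the states, and not across separate cultures of a line. GPX1 was higher in Hey, by 1.92 (SE 0.41, adjusted p 0.0182). Lower in Hey were GPX4, at -1.53 (SE 0.29, adjusted p 0.0121), and SOD1, at -1.37 (SE 0.30, adjusted p 0.0205). Each of the 3 kept its direction in all 3 states. Among PGCCs, Hey minus SKOV3 with the trend subtracted was 2.10 for GPX1, -1.46 for SOD1 and -0.57 for GPX4, against 0.99, -1.50 and -1.67 without.

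These limma calls rested on the whole set of libraries. Leaving out any 1 library left between 0 and 2 members past the threshold, GPX3 included, with 0 when either PGCC library was left out, and the adjusted p ranged from 0.0710 to 0.0968 for GPX1, from 0.0560 to 0.107 for GPX4 and from 0.0404 to 0.168 for SOD1. Without a filter on low genes no member passed. The median of all genes was -0.29, -0.35 and -0.38 for Hey minus SKOV3 in parental cells, PGCCs and daughter cells, and median ratio scaling brought it to -0.01, -0.08 and -0.02. Relative to that shift GPX4 and SOD1 were less far apart, and with this scaling GPX4 in parental cells moved from -1.18 to -0.86 and the limma adjusted p of SOD1 to 0.0624. SOD2 changed sign between the states, at -0.97 among parental cells, 1.60 among PGCCs and -2.28 among daughter cells.

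The genes whose course over the 6 libraries lay nearest to the 3 widest-ranging members were sought among 8577 genes whose mean TPM was 10 or more, by the Euclidean distance of centred log2(TPM + 1). For SOD2 they were NFKBIE (distance 0.964), HMOX1 (1.10), AP000580.1 (1.31), TNFAIP3 (1.41) and MT-RNR2 (1.49). NFKBIE encodes an inhibitor of NF-κB, HMOX1 the heme oxygenase that is induced by oxidants and TNFAIP3 a brake on inflammatory signalling. HMOX1 was at 9.54, 49.9 and 9.31 TPM in Hey parental cells, PGCCs and daughter cells and at 11.4, 30.5 and 61.6 in those of SKOV3. For GPX1 the nearest were METRNL (0.641), OAF (0.775), CYRIA (0.959), RGS20 (0.963) and EPAS1 (0.973). For GPX3 they were ANTXR2 (0.609), ZEB2 (0.625), RPS27L (0.702), FAS (0.822) and HECW2 (0.858). The likeness is what chose these genes.

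Counts in the pathway lists that follow stand beside the shares of all genes given above for each comparison. Those shares ran from 3.73% to 15.1% in 1 direction, and a count near its share is no result about the list. The share of all genes counted in both lines was not computed, so shared and unshared genes are described only. The other peroxidases comprise the remaining glutathione peroxidases and peroxiredoxins, of which 5 of 8 passed the filter on low values. None was 2-fold apart between PGCCs and parental cells in either line, where the largest differences were those of GPX8 (-0.37 in Hey, -0.93 in SKOV3) and PRDX5 (0.06 and 0.71), which were -0.48 and -0.06 in SKOV3 with the trend subtracted. PRDX2, the second cytosolic peroxiredoxin, was at 195, 306 and 9.22 TPM in SKOV3 parental cells, PGCCs and daughter cells, and at 16.6, 10.5 and 8.10 in Hey. It was the 1 gene of the list lower in SKOV3 daughter than parental cells, at -4.26. In Hey the same comparison gave -0.95 for PRDX2, and -1.13 with the trend subtracted, which is past 2-fold. The next largest difference there was that of PRDX4, at 0.65 in Hey and -0.17 in SKOV3. Between daughter cells and PGCCs of SKOV3, PRDX2 was lower, at -4.91, and GPX8 higher, at 1.02. Trend subtraction took these to -4.41 and 0.52, the latter below 2-fold.

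The thioredoxin and glutaredoxin system feeds electrons to the peroxiredoxins, and all 11 of its genes passed the filter. Between PGCCs and parental cells 1 was higher in Hey and 0 lower, and 1 was higher and 2 were lower in SKOV3, with none shared. Of all genes, 7.67% were higher and 5.22% lower in Hey, and 9.94% and 4.96% in SKOV3. TXNIP, an inhibitor of thioredoxin, was at 14.1, 208 and 42.3 TPM in Hey and at 209, 83.6 and 14.2 in SKOV3, differing by 3.79 and -1.32 between PGCCs and parental cells. GLRX2, the mitochondrial glutaredoxin, differed there by 0.82 and -1.14. Once the trend was subtracted, TXNIP was the only gene of the list counted in SKOV3 PGCCs, at -1.06, and GLRX2 was at -0.89. In daughter against parental cells 2 were higher in Hey, and 2 were higher and 3 lower in SKOV3, with TXNIP at 1.52 in Hey and -3.79 in SKOV3 and TXNRD3, a thioredoxin reductase, at 0.53 and 2.05. TXNIP and GLRX, the cytosolic glutaredoxin, were lower in daughter cells than in PGCCs in both lines, at -2.27 in Hey and -2.47 in SKOV3 for TXNIP and at -1.03 and -1.58 for GLRX. Counted over the list, 1 was higher and 2 lower there in Hey, and 2 were higher and 2 lower in SKOV3. With the trend subtracted TXNIP was at -2.29 in Hey and -2.80 in SKOV3. GLRX was then at -0.95 and -1.81, so that it passed 2-fold in SKOV3 alone.

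Of the 14 genes of glutathione and NADPH supply, all passed the filter. Between PGCCs and parental cells 1 was higher and 1 lower in Hey, and 2 were higher and 0 lower in SKOV3. The largest differences were those of GCLM, a subunit of the enzyme that limits glutathione synthesis (1.76 in Hey, -0.14 in SKOV3), and TKT, the transketolase (-0.45 and 1.73). After subtraction of the trend TKT was the only one counted in SKOV3, at 1.11. Between daughter and parental cells 1 was higher in Hey, and 3 were higher and 1 lower in SKOV3. IDH2, the mitochondrial isocitrate dehydrogenase that makes NADPH, stood at -0.17 in Hey and 2.18 in SKOV3, and NNT, the transhydrogenase, at -0.57 and -1.19. Between daughter cells and PGCCs 1 was lower in Hey and 1 higher in SKOV3, with IDH2 at 0.28 and 1.94 and IDH1 at -1.02 and 0.68. IDH2 was at 2.15 in SKOV3 with the trend subtracted. NNT was counted as lower there only with the trend subtracted, at -1.23 against -0.72 without. Its levels were low, at 1.17 TPM in SKOV3 PGCCs and 0.323 in daughter cells, so this count rests on the subtracted trend.

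Enzymes that make superoxide or hydrogen peroxide were measured less often, with 8 of 19 past the filter, and none of them was 2-fold apart between states in Hey. In SKOV3 PGCCs 2 were higher than in parental cells, SMOX, the spermine oxidase (1.30), and CYBA, a subunit of the NADPH oxidases (1.18), which stood at 0.48 and -0.31 in Hey. Neither was counted with the trend subtracted, SMOX being at 0.53 and CYBA at 0.03. CYBA was at 59.1, 135 and 2.36 TPM in SKOV3 parental cells, PGCCs and daughter cells, and between 139 and 172 in Hey. In SKOV3 daughter cells 2 were higher and 2 lower than in parental cells, with CYBA at -4.16 and NOX4, an NADPH oxidase, at -1.39. Between SKOV3 daughter cells and PGCCs CYBA was lower, at -5.34, and ERO1B, an oxidase of the endoplasmic reticulum, higher, at 1.94, or -4.38 and 1.32 with the trend subtracted. NOX4 was counted as lower there only with the trend subtracted, at -1.19 against -0.64 without. Its levels were near 0, at 0.621 TPM in SKOV3 PGCCs and 0.0375 in daughter cells, so this count rests on the subtracted trend.

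The 7 genes of selenocysteine incorporation all passed the filter, and none was 2-fold apart in Hey in any comparison. In SKOV3 none was apart between PGCCs and parental cells, where EEFSEC, the elongation factor for selenocysteine, had the largest difference with SEPSECS (0.73 and -0.78, against -0.79 and -0.18 in Hey), or -0.06 and -0.26 with the trend subtracted. In SKOV3 daughter cells PSTK, which phosphorylates the loaded tRNA, was higher than in parental cells, by 1.17, and both SEPSECS (1.39) and PSTK (1.29) were higher than in PGCCs. SEPSECS was at 0.81 against PGCCs with the trend subtracted, below 2-fold, and PSTK at 1.21.

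Of the other selenoproteins, 13 of 16 passed the filter. Between PGCCs and parental cells 2 were higher in each line and none lower, the largest differences being those of SELENOO (-0.72 in Hey, 1.58 in SKOV3) and SELENOW (1.41 and 0.50). In SKOV3 with the trend subtracted SELENOO was at 0.51, below 2-fold, and the 1 gene still counted there was SELENOH. Between daughter and parental cells none passed in Hey, and 1 was higher and 1 lower in SKOV3, SELENOM at 1.40 and SELENOH at -1.73. Between daughter cells and PGCCs 3 were lower in Hey and 2 in SKOV3, with SELENOH at -0.83 and -2.87 and SELENOW at -1.81 and -0.88. After trend subtraction these were -2.79 and -0.42 in SKOV3. SELENOM was then counted as higher in SKOV3 daughter cells than in PGCCs, at 1.82, from 0.98 without the subtraction.

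Metal delivery and organelle import, the genes that bring metals to the dismutases and catalase into peroxisomes, had 9 of 9 past the filter and none 2-fold apart in Hey. In SKOV3 PGCCs 1 was higher than in parental cells, PEX14, a peroxisomal docking protein (1.05), and the next was PEX5, the import receptor (0.87), against -0.54 and -0.25 in Hey. With the trend subtracted PEX14 was at 0.23 and PEX5 at 0.49. SLC25A37, a mitochondrial iron importer, was higher in SKOV3 daughter than parental cells, at 1.03, followed by SLC39A8, a carrier of zinc and manganese, at 0.51. Between SKOV3 daughter cells and PGCCs SLC39A8 was higher, at 1.37, and PEX14 lower, at -1.13. With the trend subtracted no gene of the list was counted in any SKOV3 comparison.

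All 11 regulators of the members passed the filter, and none was 2-fold apart in Hey. FOXO1, a transcription factor that acts on SOD2 and CAT, was at 23.5, 9.56 and 4.74 TPM in SKOV3 parental cells, PGCCs and daughter cells, and at 8.64, 9.39 and 10.2 in Hey. In SKOV3 it differed from parental cells by -1.21 in PGCCs, the same with the trend subtracted, and by -2.09 in daughter cells. RELA, a subunit of NF-κB, differed by 0.42 in Hey and 0.90 in SKOV3 between PGCCs and parental cells, or 0.25 in SKOV3 with the trend subtracted. PPARGC1A, a coactivator of mitochondrial genes, was higher in SKOV3 daughter cells than in parental cells (1.83) and PGCCs (1.22), from a parental level of 0.404 TPM. NFKB1, the precursor of another NF-κB subunit, was higher in SKOV3 daughter cells than in PGCCs, at 1.12, and stood at -0.24 in Hey. With the trend subtracted neither PPARGC1A (0.72) nor NFKB1 (0.99) passed 2-fold against SKOV3 PGCCs. FOXO1 was then counted as lower in SKOV3 daughter cells than in PGCCs, at -1.14, from -0.88 without the subtraction.

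Between-state shares of all genes moved with the scaling, which bears on the background shares above. Of the genes counted between PGCCs and parental cells, 59.5% were higher in Hey, and 71.6% without the mitochondrial genes. In SKOV3 the share was 66.7%, 56.5% with quantile normalization and 45.9% with the trend subtracted. For daughter against parental cells it was 62.8% in Hey and 70.5% in SKOV3, and 50.6% and 52.5% with quantile normalization. For daughter cells against PGCCs in SKOV3 it was 61.2%, and 48.1% with quantile normalization. Between the lines the share higher in Hey was 32.3%, 31.1% and 29.4% in parental cells, PGCCs and daughter cells, and 47.9%, 46.9% and 49.1% with quantile normalization. SOD2 was counted as higher in the PGCCs of both lines under each of these scalings.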

How the data were processed

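RNA from 6 libraries, 1 per condition, was analysed. Per the labels, reads were cleaned with fastp and quantified with Salmon 0.14.1 on hg38. The authors deposited TPM, scaled within each library, as 1 value per gene symbol, without read counts. The study's methods give mapped totals that differ little between libraries, but reads per gene and counting error cannot be had from the table, and a share taken by some genes lowers the others. The annotation release and bias options are not given in the sources used here.

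Differences of log2(TPM + 1) were taken within each line and between lines and counted at 2-fold among genes whose mean TPM was 1 or more. They understate the change of low genes. limma 3.58.1 in R 4.3.3 was fitted on all 6 libraries with state and line as terms, a trended eBayes step and two-sided Benjamini-Hochberg adjusted p-values over all 14988 genes. Its p-values rest on the spread between these libraries, moderated over all genes by the eBayes step, since no separate cultures of a condition exist. The fit compares states within a line through its line term, and replicate numbers pair nothing, as each group holds 1 library. Everything else ran in Python 3.11.15 (statsmodels 0.14.6, scipy 1.17.1, pandas 2.3.3, numpy 2.4.6). The 2-fold count, the limma fit and the trend subtraction were tested on simulated data, and the other steps were not. The simulated libraries had the same small spread, no difference between the lines and planted changes alike in both. They do not show how the fit behaves where the lines disagree, as they do here.

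Named were every member in every library and, of each pathway list, the genes counted in the same direction in both lines or else the 2 with the largest difference. For the 3 members with the widest range, the 5 nearest genes (mean TPM of 10 or more) were also named. Members and lists were chosen with earlier results of these data known. GC content and length are those of GENCODE release 44 canonical transcripts, joined by symbol, and their trend was fitted by lowess (fraction 0.3, 2 passes). Promoter windows are from RefSeq (GRCh38.p14).

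Alternatives were a pseudocount of 0.1, no filter, a mean TPM of at least 5, median ratio scaling, quantile normalization, mitochondrial genes left out, the GC and length trend subtracted and, for limma, no trend, no line or state term and each library left out. Subtracting the trend from the pathway lists and the members' medians was added after seeing the data.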

Additional observations from a re-analysis of the deposited data

Results flagged for a closer look

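SOD2 and CAT moved in opposite directions in the lines between PGCCs and daughter cells. For SOD2 the difference was -3.19 in Hey and 0.69 in SKOV3, so that Hey minus SKOV3 was -3.88 on the log2 scale. For CAT the difference was 0.43 in Hey and -0.85 in SKOV3, and Hey minus SKOV3 was 1.28. With 1 library per condition neither difference between the lines was tested.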

How the results depend on the processing

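Most counts of members moved by no more than 1.5 times under the settings tried. Of the counts that moved by more than 1.5 times, that for PGCCs against parental cells in SKOV3 went from 2 to 1 with the GC and length trend subtracted, which took out GPX1. That for daughter cells against PGCCs went from 2 to 1 in Hey at a mean TPM of at least 5, where GPX3 is no longer tested, and from 1 to 2 in SKOV3 with quantile normalization and with the trend subtracted, both times through CAT. A move of exactly 1.5 times is not among these. The same count in Hey went from 2 to 3 with the trend subtracted, where GPX1 was at -1.03. PRDX1 passed 2-fold there with median ratio scaling and without the mitochondrial genes. The limma count between the lines, GPX3 included, went from 4 to 0 without a filter, where 31474 genes are adjusted for, and lay between 0 and 2 when a library was left out, which leaves 1 residual degree of freedom. The 3 limma counts between states stayed at 0 members under every setting. The limma fit already compares states within a line, which is the only pairing in the design. Taking the line term out (no replicate block) left 0 members between states, and taking the state term out left 3 between the lines, with GPX1 at an adjusted p of 0.0570. No called value changed sign. TPM carries no read counts per gene, so no counting error can be given for values near 0, such as those of SOD3, GPX2 and, in SKOV3, GPX3.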
